A study of Mus musculus with 2 samples.

Results

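The genes described here are 9 members of the poly(ADP-ribose) polymerase family, Parp1, Parp2, Parp3, Parp8, Parp9, Parp10, Parp11, Parp12 and Parp14, together with Dtx3l, the ubiquitin ligase that partners Parp9. They were chosen by name, and each symbol was matched to its gene identifier in the deposited transcript tables, which gave 10 of 55536 annotated genes and 10 of 22028 protein-coding genes. Parp14, Parp9, Dtx3l, Parp12, Parp10 and Parp11 are taken as interferon-linked and Parp1, Parp2 and Parp3 as DNA-repair members. Parp8 was placed in neither subgroup.

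Transcripts were measured in macrophages that had been grown from C57BL/6J mouse bone marrow, using polyA plus RNA-seq, in 2 libraries that form 1 group. The cells had a 12 h exposure to lipid A (100 ng/ml), a 12 h washout and then a second exposure to the same dose that lasted 120 min. Lipid A anchors lipopolysaccharide in the outer membrane of bacteria and binds the receptor TLR4, and some of the labels give the agent as lipoprotein A instead. The libraries are labelled biological replicates 1 and 2 but share 1 donor identifier. No label names separate animals, so their spread may be technical. Each was made from 1 µg of RNA. No untreated or singly treated cells were analysed here, so the data give levels at this point and no response to lipid A.

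ADP-ribosyltransferases of this family move ADP-ribose from NAD onto proteins and nucleic acids. Parp1 and Parp2 build chains of it at DNA breaks, which recruit repair proteins, and Parp3 also acts at breaks but adds single units. The interferon-linked PARP members add single units or read them through macrodomains, while Dtx3l is a ubiquitin ligase. The members of this subgroup belong to the genes that type I and type II interferons induce in many cells. In macrophages, TLR4 signalling leads to interferon beta release, which acts back on the same cells through its receptor.

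Replicate 1 held 45377715 expected counts and replicate 2 held 32112416, where an expected count is the estimated number of reads of a gene. The 10 genes took 125973 of those reads in replicate 1 and 108580 in replicate 2, or 0.278% and 0.338% of the reads in annotated genes. All 7 macrophage markers, among them Csf1r and Adgre1, reached 10 TPM in both libraries, with summed levels of 15810 TPM in replicate 1 and 17102 TPM in replicate 2. TPM is a level per transcript length that adds up to the same total in each library. The markers of T cells, B cells, NK cells and stromal cells were all under 1 TPM. The 5 neutrophil markers summed to 52.7 TPM in replicate 1 and 5.07 TPM in replicate 2, nearly all of it from S100a8 and S100a9, while Ly6g had 0 reads in both. Siglech, a plasmacytoid dendritic cell marker, was under 1 TPM in both, while Bst2, which interferon also induces in other cells, had 1999.64 TPM in replicate 1 and 802.10 TPM in replicate 2. In bulk libraries such as these, fewer cells of a type and less RNA per cell cannot be told apart.

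All 10 genes were at 10 TPM or more in both libraries, a level that 27.2% of protein-coding genes reached. The 4 genes at 100 TPM or more in both were Parp14, Parp12, Parp9 and Dtx3l, all of them interferon-linked, while 0 of the 3 DNA-repair members were. Of protein-coding genes, 5.20% reached 100 TPM in both. In the second quantification deposited by the authors, which was made without alignments, Dtx3l had 83.4 TPM in replicate 1 and 123 TPM in replicate 2, so 3 genes reached that level there. Mean levels ran from 344 TPM for Parp14 down to 25.4 TPM for Parp2. These genes were chosen with earlier results of these data known, so the counts describe them and carry no test.

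**Figure D1:**
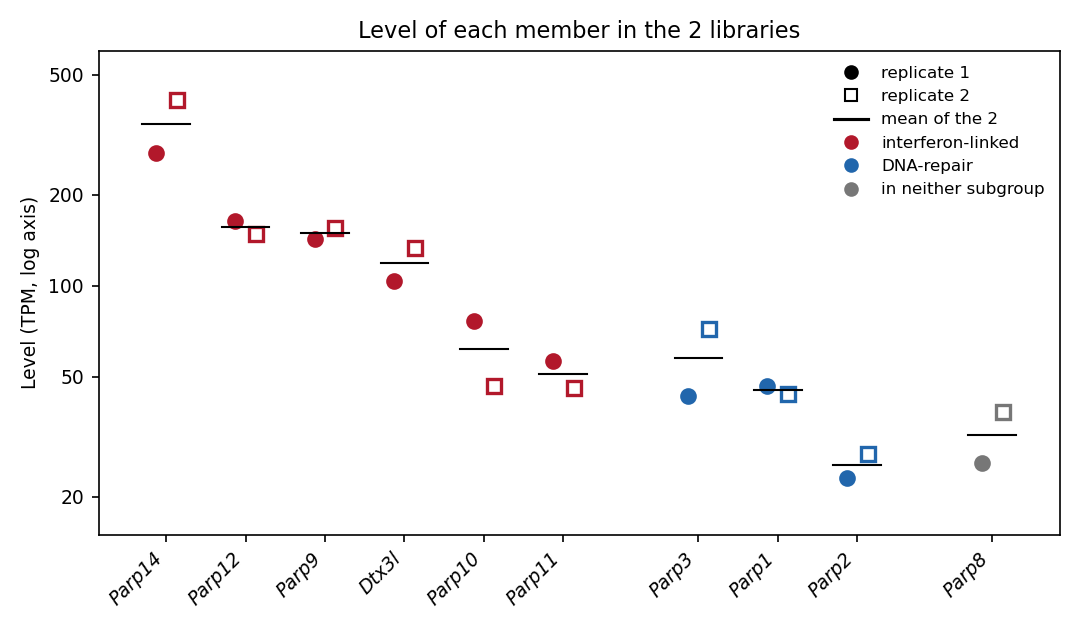
Level of each of the 10 genes in TPM on a log axis, with replicate 1 as filled circles, replicate 2 as open squares and the mean of both as a line. Parp14 stands above the rest at 275.95 TPM in replicate 1 and 412.37 TPM in replicate 2, and Parp3 in replicate 2 (72.18 TPM) lies above Parp10 and Parp11 in that library (46.67 and 45.83 TPM).

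Parp14, a large transferase with macrodomains that is known as a cofactor of Stat6 in mouse lymphocytes, had 275.95 TPM in replicate 1 and 412.37 TPM in replicate 2 (344 ± 96.5 TPM, SD, n = 2). It was the most abundant of the 10 in both libraries and held rank 435 among protein-coding genes, with 98.0% of them below it. Its values rest on 60909 and 62248 reads, so counting error is small beside the spread between the libraries. Parp14 alone made up 33.6% of the summed TPM of the 6 interferon-linked genes in replicate 1 and 43.7% in replicate 2.

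Parp9 has macrodomains that bind ADP-ribose and is known, from human cells, to work as a complex with Dtx3l. Parp9 had 143.32 TPM in replicate 1 and 155.74 TPM in replicate 2 (149.53 ± 8.78 TPM, SD, n = 2). Dtx3l, the ubiquitin ligase of the pair, had 103.45 TPM in replicate 1 and 133.62 TPM in replicate 2 (119 ± 21.3 TPM, SD, n = 2). Per length and over all transcripts, Parp9 was thus 1.39-fold above Dtx3l in replicate 1 and 1.17-fold above it in replicate 2. The ranges of the 2 genes did not overlap in these values, but they did in the second quantification. There Parp9 had 119.1 TPM in replicate 1 and 141.3 TPM in replicate 2, against 83.4 and 123.1 TPM for Dtx3l. Transcripts not annotated as protein-coding held 19.7% of the TPM of Parp9 in replicate 1 and 19.0% in replicate 2, and 0% of that of Dtx3l. The 2 main coding transcripts of Parp9 are Parp9-201 and Parp9-203. They had 84.44 and 30.65 TPM in replicate 1, and 89.76 and 36.33 TPM in replicate 2. The summed coding forms of Parp9 were therefore above Dtx3l in replicate 1 but below it in replicate 2. The coding forms alone did not keep the order of the whole genes in both libraries. By mean level of the whole gene, Parp9 held rank 931 among protein-coding genes and Dtx3l held rank 1137.

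Parp14, Dtx3l and Parp9 lie side by side on chromosome 16, in a block of 139.7 kb at chr16:35832874-35972605 (mm10). Dtx3l and Parp9 start head to head on opposite strands, and their annotated spans overlap by 682 bases at chr16:35938470-35939151. Their exons share 458 bases, which are 9.40% of the exonic bases of Parp9 and 8% of those of Dtx3l. Whether the counting used strand is not given in the sources used here, so reads in those bases are uncertain between the 2 genes. The authors' table gives a posterior SD of 3.42 reads in replicate 1 and 3.05 reads in replicate 2 for each of the 2 genes, and of 0 for the other 8. The RefSeq promoter entry of Dtx3l is shown because it also holds the start of Parp9-201, the leading Parp9 transcript. The start of Parp9-203, at the edge of the overlap, lies outside it. It spans 250 bases before to 50 bases after a start that lies 124 bases inside the GENCODE one (GRCm38.p6, chr16:35938978-35939277, minus strand, 5′ to 3′), and the capitals mark the first 20 bases of Parp9-201, which is transcribed the other way.
Dtx3l promoter: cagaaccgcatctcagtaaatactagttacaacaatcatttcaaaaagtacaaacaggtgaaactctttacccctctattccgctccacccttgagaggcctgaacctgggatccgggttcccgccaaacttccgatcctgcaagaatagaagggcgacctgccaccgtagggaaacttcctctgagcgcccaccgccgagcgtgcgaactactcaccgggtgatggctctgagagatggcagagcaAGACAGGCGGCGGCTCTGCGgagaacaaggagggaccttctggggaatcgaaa

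The genes on either side of the block were far lower. Hspbap1, the nearest protein-coding gene on the Parp14 side, had 7.18 TPM in replicate 1 and 3.03 TPM in replicate 2. Kpna1, an importin alpha that carries proteins into the nucleus and is the next gene beyond Parp9, had 14.04 TPM in replicate 1 and 14.39 TPM in replicate 2. The nearest annotated gene of any kind on the Parp14 side, the pseudogene Gm49728, had 0 reads in replicate 1 and 1 read in replicate 2. Parp14 is 54.97 kb from Dtx3l, and the 2 pseudogenes in that gap, Gm41467 and Gm10237, had 0 reads in both libraries. A count of 0 allows up to 3 reads, which is 0.0661 CPM in replicate 1 and 0.0934 CPM in replicate 2.

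**Figure D2:**
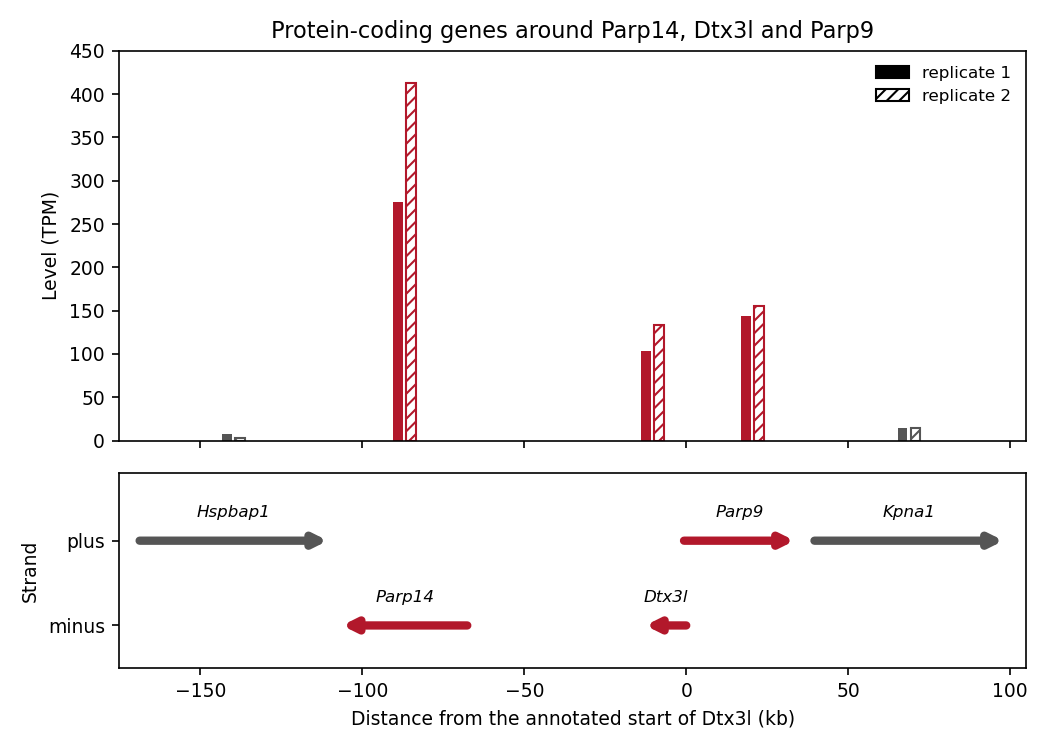
Protein-coding genes around Parp14, Dtx3l and Parp9, with position given as the distance in kb from the annotated start of Dtx3l, arrows for the gene spans and their direction, and bars for the level in TPM (filled, replicate 1; hatched, replicate 2; drawn near the middle of each gene). The 3 interferon-linked genes stand between 103.45 and 412.37 TPM, and the flanking Hspbap1 and Kpna1 stay at or under 14.39 TPM.

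Parp12, a transferase with zinc fingers that bind RNA, had 164.44 TPM in replicate 1 and 148.58 TPM in replicate 2 (157 ± 11.2 TPM, SD, n = 2). Its values and those of Parp9 overlapped, so the order of these 2 genes is within their spread. Parp10, a transferase first described as a partner of the Myc protein, had 76.71 TPM in replicate 1 and 46.67 TPM in replicate 2 (61.7 ± 21.2 TPM, SD, n = 2). Parp11, a transferase with a WWE domain, had 56.51 TPM in replicate 1 and 45.83 TPM in replicate 2 (51.2 ± 7.55 TPM, SD, n = 2). Both stood below the other 4 interferon-linked genes in each library. Parp10 shares 205 exonic bases with Plec on the same strand, 4.80% of its exonic bases, and Plec had 42.53 TPM in replicate 1 and 46.19 TPM in replicate 2.

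Parp1, the best known break sensor of the family, had 46.64 TPM in replicate 1 and 43.89 TPM in replicate 2 (45.3 ± 1.94 TPM, SD, n = 2), the smallest SD of the 10. Parp2, which also builds chains at breaks, had 23.08 TPM in replicate 1 and 27.80 TPM in replicate 2 (25.4 ± 3.34 TPM, SD, n = 2). It was the lowest of the 10 in both libraries, with 81.9% of protein-coding genes below it. Parp3 had 42.99 TPM in replicate 1 and 72.18 TPM in replicate 2 (57.6 ± 20.6 TPM, SD, n = 2). The 3 DNA-repair genes therefore had no fixed order, with Parp1 above Parp3 in replicate 1 and below it in replicate 2. Parp8, a transferase of little known function, had 25.82 TPM in replicate 1 and 38.08 TPM in replicate 2 (31.95 ± 8.67 TPM, SD, n = 2), between Parp1 and Parp2 in both.

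By mean level the order was Parp14, Parp12, Parp9, Dtx3l, Parp10, Parp3, Parp11, Parp1, Parp8 and Parp2. Values of neighbours overlapped between Parp12 and Parp9, Parp10 and Parp3, Parp3 and Parp11, Parp11 and Parp1, and Parp8 and Parp2, so their ranges did not separate. Within each library, Parp11 was above Parp1 and Parp8 above Parp2, while the order of the other 3 pairs turned round between the libraries. Parp14 and Parp12, Parp9 and Dtx3l, Dtx3l and Parp10, and Parp1 and Parp8 did not overlap. In the second quantification, however, Parp9 and Dtx3l did.

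Set against each other, the interferon-linked genes were higher than the DNA-repair genes in both libraries. Their median was 123.4 TPM in replicate 1, against 42.99 TPM for the DNA-repair genes there, and 141.1 TPM in replicate 2, against 43.89 TPM. As a difference of median log2(TPM + 1), interferon-linked minus DNA-repair, this is 1.48 in replicate 1 and 1.66 in replicate 2 (1.57 ± 0.13, SD, n = 2), which corresponds to 2.79-fold and 3.16-fold on the scale of TPM + 1. Summed levels were 820 TPM for the 6 interferon-linked genes in replicate 1, against 113 TPM for the 3 DNA-repair genes, and 943 TPM in replicate 2, against 144 TPM. Parp14 exceeded Parp1 by 5.92-fold in replicate 1 and by 9.40-fold in replicate 2.

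The subgroups were not fully apart. Of the 18 pairs of 1 interferon-linked and 1 DNA-repair gene, the interferon-linked one was higher in both libraries in 16. The exceptions were Parp10 against Parp3 and Parp11 against Parp3, where Parp3 was the higher in replicate 2. All 6 interferon-linked genes were above every DNA-repair gene in replicate 1, and 4 of the 6 were in replicate 2. With 1 condition and 2 libraries there is no test of this contrast, and the genes of a subgroup are not replicates of it.

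Promoter sequence was compared with the interferon grouping because 2 short motifs are known from interferon-induced genes. RefSeq entries of 300 bases (GRCm38.p6) matched 7 of the 10 genes, with 2 entries for Parp11, and none matched Parp9, Parp10 or Parp14. The core of the interferon-stimulated response element, GAAANNGAAA on either strand, was in an entry of 1 of those 7 genes, Parp11. Over all entries it was in 3.44% of 32851, from 1079 of 27025 genes. It was in no entry of the 3 DNA-repair genes and not in those of Dtx3l, Parp12 and Parp8. The Dtx3l entry is placed by a start 124 bases inside the GENCODE one, so it covers less of the sequence before the GENCODE start. The core of the gamma-activated site, TTCNNNGAA on either strand, which reads the same on both, was also found in Parp11 alone among the 7. Over all entries it was in 8.30%, from 2582 of 27025 genes. A match is a description of these letters and not of binding.

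Parp11 has annotated starts 6.883 kb apart, and the motif lies at the upstream one, where Parp11-202 begins. The 2 entries are shown because they differ in this respect, with the response element core in capitals (chr6:127446590-127446889 and chr6:127453377-127453676, plus strand, 5′ to 3′). It reads TTTCGATTTC on the plus strand, from 44 to 35 bases before the start, and the gamma-activated site core begins 37 bases before the start and overlaps it by 3 bases. The upstream entry has 42% G and C, and the downstream one has 59% and neither motif. The downstream entry lies near the start of Parp11-201, at chr6:127453723, but ends before it and so does not hold that start.
Parp11 upstream promoter: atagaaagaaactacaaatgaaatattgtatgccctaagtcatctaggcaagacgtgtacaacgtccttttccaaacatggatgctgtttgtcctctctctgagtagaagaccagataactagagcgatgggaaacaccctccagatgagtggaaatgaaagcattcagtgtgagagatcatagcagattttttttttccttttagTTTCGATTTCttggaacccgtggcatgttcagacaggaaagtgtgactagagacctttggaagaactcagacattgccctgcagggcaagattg
Parp11 downstream promoter: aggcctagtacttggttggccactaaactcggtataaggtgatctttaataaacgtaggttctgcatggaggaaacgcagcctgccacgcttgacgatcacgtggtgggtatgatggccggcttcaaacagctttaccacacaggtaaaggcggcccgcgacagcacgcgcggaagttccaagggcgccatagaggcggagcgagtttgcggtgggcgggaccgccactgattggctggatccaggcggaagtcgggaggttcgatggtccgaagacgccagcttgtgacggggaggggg

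Transcripts from both of these starts of Parp11 were counted. Parp11-201, from the downstream start, had 47.5% of the gene's TPM in replicate 1 and 57.8% in replicate 2. Parp11-202, from the upstream start, had 36.3% in replicate 1 and 30.4% in replicate 2. Their annotated coding sequences have 993 and 744 bases. In the second quantification, Parp11-202 led with 34.0% in replicate 1 and 38.4% in replicate 2, and Parp11-201 had 24.2% and 17.3%. Parp11-204, which starts between the 2, had 23.3% in replicate 1 and 35.2% in replicate 2 there, against 0% in the alignment-based values. Which of Parp11-201 and Parp11-202 led therefore depended on the quantification, as did the share of this further start.

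A single transcript held at least 90% of the TPM of its gene in both libraries for 4 of the 10 genes. These were Parp14-201 with 98.0% in replicate 1 and 99.4% in replicate 2, Dtx3l-201 with 97.8% and 99.5%, Parp12-201 with 97.3% and 97.2%, and Parp1-201 with 95.9% and 98.1%. For the other 6 genes the leading transcript was under 90% in at least 1 library. That was so for 64.9% of protein-coding genes at 10 TPM in both libraries, so 6 of 10 is near the background.

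**Figure D3:**
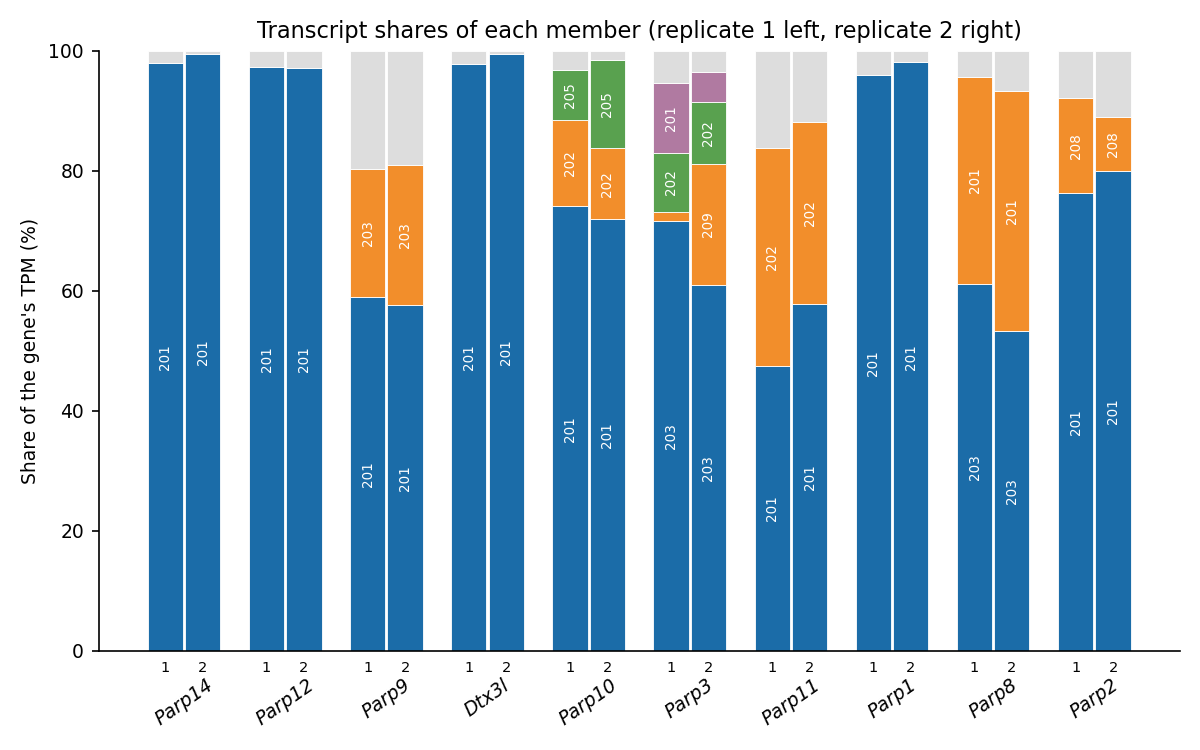
Share of each gene's TPM held by its transcripts in percent, with replicate 1 as the left bar and replicate 2 as the right bar of each pair. Colours mark transcripts with at least 10% in either library, numbered as in GENCODE, and grey holds the rest. Parp14, Parp12, Dtx3l and Parp1 are almost a single colour, and Parp3-209 is visible mainly in replicate 2 (1.56% in replicate 1, 20.1% in replicate 2).

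Most of Parp9 was split between 2 coding transcripts. Parp9-201 had 58.9% in replicate 1 and 57.6% in replicate 2, and Parp9-203 had 21.4% and 23.3%. Transcripts not annotated as protein-coding held 19.7% and 19.0%. In the second quantification, Parp9-201 had 48.7% in replicate 1 and 45.3% in replicate 2, and Parp9-203 had 27.4% and 33.7%. Parp9-203 holds an exon of 34 bases at chr16:35943369-35943402 (mm10, plus strand) that Parp9-201 lacks, and their annotated coding sequences have 2490 and 1791 bases. Parp9-203 also starts further upstream, at position 35938470, against 35939011 for Parp9-201. The exon is shown in capitals, as 1 of the stretches in which the 2 main forms of Parp9 differ, with 15 bases before it and 30 after it in the GENCODE transcript.
Parp9-203 exon: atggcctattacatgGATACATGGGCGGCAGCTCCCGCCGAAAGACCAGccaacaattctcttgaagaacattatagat

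Of the transcripts with at least 10% of their gene in either library, Parp3-209 differed most in share between the libraries, with 1.56% in replicate 1 and 20.1% in replicate 2. Parp3-203 led with 71.6% in replicate 1 and 61.0% in replicate 2. Parp3-209 had 0.67 TPM in replicate 1 and 14.52 TPM in replicate 2, on 18.7 and 279 expected counts. In the second quantification Parp3-209 had 0.98 TPM in replicate 1 and 18.4 TPM in replicate 2, so the library difference was there in both. Parp3-201 had 5.02 TPM in replicate 1 and 3.61 TPM in replicate 2, and Parp3-202 had 4.23 and 7.43 TPM. Parp3-209 lacks an exon of 153 bases that Parp3-203 holds, at chr9:106473681-106473833 (mm10, minus strand), a length divisible by 3. The 2 transcripts also differ in where they start and in length, with 8 exons and 1180 bases annotated in Parp3-209 and 11 exons and 2495 bases in Parp3-203. The exon is shown in capitals between 15 bases on each side in Parp3-203, as 1 of the stretches in which these forms differ.
Parp3-203 exon: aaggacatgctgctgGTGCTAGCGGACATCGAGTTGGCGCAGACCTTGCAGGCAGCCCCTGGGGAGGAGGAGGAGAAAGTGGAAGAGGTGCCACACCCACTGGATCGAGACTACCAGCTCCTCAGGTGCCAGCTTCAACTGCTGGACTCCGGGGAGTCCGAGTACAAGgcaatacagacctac

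The remaining 3 genes kept the same leading transcript in both libraries. Parp8-203 had 61.2% in replicate 1 and 53.4% in replicate 2, beside Parp8-201 with 34.5% and 39.9%, and their annotated coding sequences have 2556 and 2673 bases. Parp10-201 had 74.1% in replicate 1 and 72.0% in replicate 2, and Parp10-202 had 14.4% and 11.8%. Parp2-201 had 76.3% in replicate 1 and 79.9% in replicate 2, and Parp2-208, a retained-intron transcript of 423 bases, had 15.8% and 8.96%. The shares of Parp2-208 are per length and rest on only 17.4 and 8.23 expected counts, of 949 and 798 for the gene, so they are uncertain.

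Between the libraries, the genes were compared as the ratio of replicate 1 over replicate 2 from expected counts after TMM scaling, with 95% intervals that cover counting error only. None of the 10 was 2-fold apart. Of the 12552 tested genes, those that averaged 10 reads or more, 11.3% were (5.99% higher in replicate 1 and 5.31% higher in replicate 2). Thus 0 of 10 is near the background. That background also holds genes with far fewer reads than any of the 10, where counting error is larger. Among the 10, Parp10 was the furthest apart, 1.70-fold higher in replicate 1 (interval 1.63 to 1.78). Parp14 was 1.52-fold higher in replicate 2 (1.50 to 1.54), Parp3 1.49-fold higher (1.41 to 1.57), Parp8 1.47-fold higher (1.39 to 1.56), Dtx3l 1.31-fold higher (1.28 to 1.34) and Parp2 1.25-fold higher (1.14 to 1.38). The log2 ratio was 0.22 for Parp11, 0.14 for Parp12, 0.05 for Parp1 and -0.13 for Parp9.

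The ratio favoured replicate 1 for 4 of the 10 genes and replicate 2 for 6. The median log2 ratio over all tested genes was 0.02, so these fell about evenly on both sides, and 4 of 10 is near the background. By counting error alone, the interval excluded a ratio of 1 for all of the 10 but Parp1, at 1.03 (0.988 to 1.08). Such intervals are narrow for genes with many reads. The share of all tested genes whose interval excludes 1 was not computed, so this count does not set the 10 genes apart. The median absolute log2 ratio was 0.36 over the 10 genes and 0.36 over all tested genes. The 6 interferon-linked genes did not move together, since Parp10, Parp11 and Parp12 were higher in replicate 1, and Parp14, Dtx3l and Parp9 in replicate 2. Of the 5 neutrophil markers, S100a8 and S100a9 were also higher in replicate 1, with log2 ratios of 2.71 and 4.35. The others did not show such a difference at a measurable level. Ly6g had 0 reads in both libraries, Mpo had 0.16 TPM in replicate 1 and 0.17 TPM in replicate 2, and Elane had 8 and 0 reads. Whether other cells have a part in the ratios of the 10 genes was not tested.

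**Figure D4:**
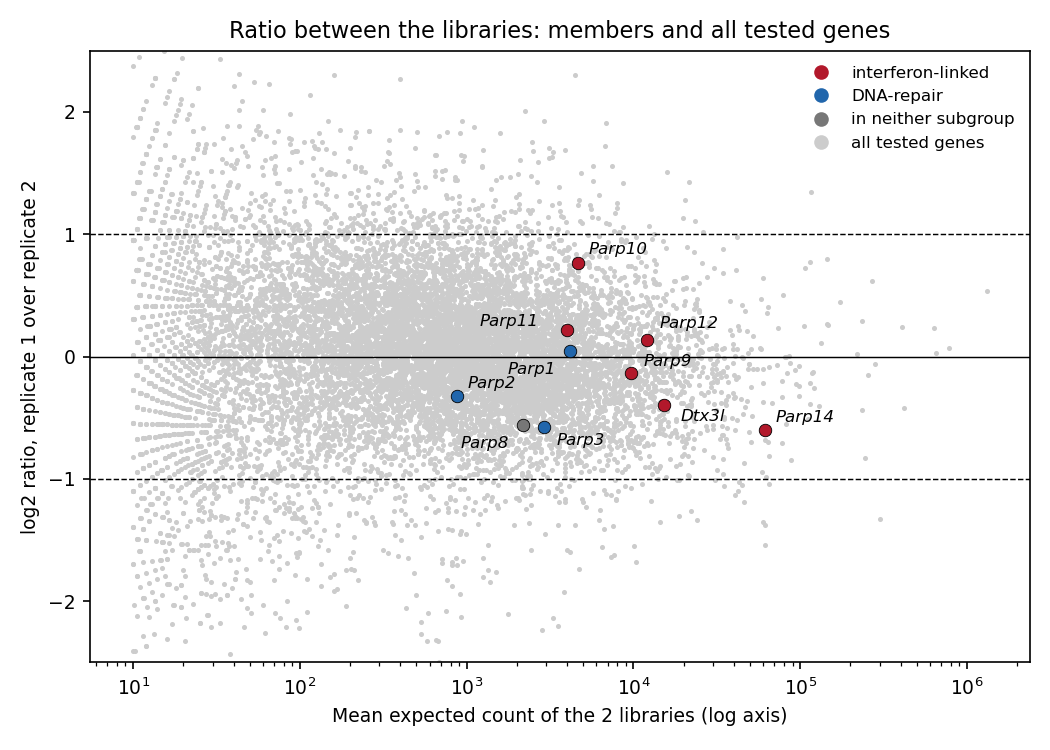
Log2 ratio of replicate 1 over replicate 2 against the mean expected count on a log axis, for the 12552 tested genes (light grey) and the 10 genes (coloured by subgroup). Dashed lines mark 2-fold, and 132 genes beyond 2.5 on the log2 axis are not drawn. All 10 genes lie between the dashed lines, from Parp10 at 0.77 to Parp14 at -0.60.

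Of the rest of the family, Zc3hav1 was the most abundant. Of 7 other family genes, 5 were at 10 TPM or more in both libraries and 1 at 100 TPM. Zc3hav1, which binds viral RNA and carries an inactive PARP domain, was at 118.80 TPM in replicate 1 and 172.97 TPM in replicate 2. Tiparp, a target of the aryl hydrocarbon receptor, had 32.20 TPM in replicate 1 and 71.17 TPM in replicate 2, and was more than 2-fold higher in replicate 2 by counts, with a log2 ratio of -1.16. Tnks2, a tankyrase that builds chains on telomere and Wnt pathway proteins, had 32.66 TPM in replicate 1 and 44.63 TPM in replicate 2. Parp16 was under 1 TPM in both.

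The partner ligase also had family members to be set beside it. Of the 4 other Deltex ligases, Dtx2 had 44.62 TPM in replicate 1 and 48.22 TPM in replicate 2, and Dtx4 had 12.32 and 20.61 TPM. Dtx3 had 5.99 TPM in replicate 1 and 7.37 TPM in replicate 2, and Dtx1 was under 1 TPM. Dtx3l was the highest of the 5 in both libraries.

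Genes that remove or read ADP-ribose were at moderate levels, with 5 of 9 at 10 TPM in both libraries and 0 at 100 TPM. Adprh, a hydrolase that takes ADP-ribose off arginine, had 56.11 TPM in replicate 1 and 31.88 TPM in replicate 2. Hpf1, the cofactor that directs Parp1 and Parp2 to serine, had 36.20 TPM in replicate 1 and 34.88 TPM in replicate 2. Rnf146, a ubiquitin ligase that reads ADP-ribose chains, had 14.94 TPM in replicate 1 and 15.68 TPM in replicate 2. Macrod2 and Adprhl1 were under 1 TPM.

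NAD is the substrate of these enzymes, and 1 gene dominated its synthesis list. Nampt, the rate-limiting enzyme of NAD salvage from nicotinamide, had 133.11 TPM in replicate 1 and 166.53 TPM in replicate 2 and was the only 1 of 9 at 10 TPM in both. Nmnat1, the nuclear enzyme of the next step, had 8.80 TPM in replicate 1 and 10.83 TPM in replicate 2, and its mitochondrial relative Nmnat3 had 4.90 and 4.25 TPM. Nmrk2, Qprt and Nmnat2 had 0 reads in both libraries. Of 7 other NAD consumers, 3 were at 10 TPM or more in both and 1 at 100 TPM. Sirt2, a deacetylase, had 122.64 TPM in replicate 1 and 148.67 TPM in replicate 2. Cd38, an ectoenzyme that cleaves NAD, had 55.47 TPM in replicate 1 and 42.97 TPM in replicate 2. Sirt6, a chromatin deacetylase, had 13.00 and 10.52 TPM, and Sarm1 was under 1 TPM.

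Among 13 strand break repair partners of Parp1, Parp2 and Parp3, 6 were at 10 TPM or more in both libraries and 0 at 100 TPM. Xrcc1, the scaffold that Parp1 brings to single-strand breaks, had 69.43 TPM in replicate 1 and 51.98 TPM in replicate 2. Polb, the polymerase that fills the gap, had 40.03 TPM in replicate 1 and 55.28 TPM in replicate 2. Xrcc5, a subunit of the Ku end-binding complex, had 0 reads in replicate 1 and 2 reads in replicate 2.

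By median, the interferon receptor signalling genes were the highest of the 7 lists, with 12 of 12 at 10 TPM in both libraries and 6 at 100 TPM. Irf7, a transcription factor of the interferon response, had 2031.27 TPM in replicate 1 and 1969.11 TPM in replicate 2. Irf1, a second such factor, had 540.15 TPM in replicate 1 and 472.37 TPM in replicate 2. The median of mean log2(TPM + 1) was 5.88 over the 10 genes, 6.88 over interferon receptor signalling, 4.62 over the other PARP family, 3.87 over ADP-ribose removal and reading, 3.54 over the other NAD consumers, 3.51 over the Deltex ligases, 3.42 over the repair partners and 2.18 over NAD synthesis. Over all protein-coding genes it was 0.38, and in all 34 of the 61 listed genes reached 10 TPM in both libraries.

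**Figure D5:**
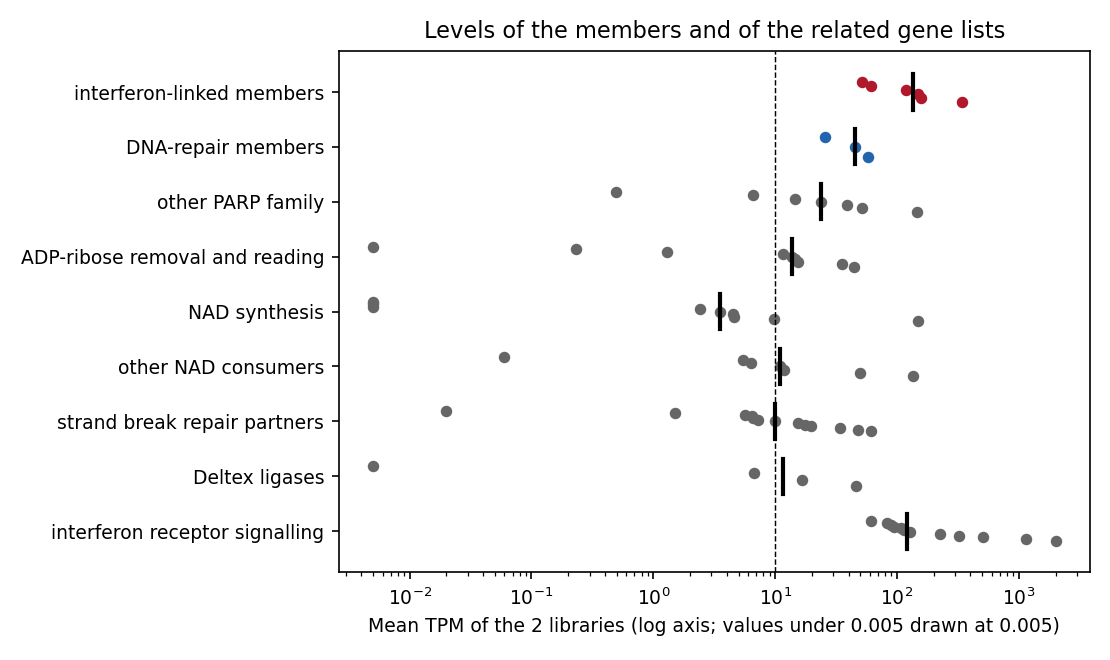
Mean TPM of the 2 libraries on a log axis for the interferon-linked and DNA-repair genes and for 7 lists of related genes, with 1 point per gene, a black bar at each median and a dashed line at 10 TPM. Points under 0.005 TPM are drawn at 0.005. All interferon-linked and DNA-repair genes lie right of the dashed line, and the NAD synthesis list lies left of it except for Nampt.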

How the data were processed

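The tables of 2 polyA plus RNA-seq libraries were used as deposited, on mm10 and GENCODE M21 per the file headers in the notes that accompany them. The authors' gene table, made from transcriptome alignments, holds expected counts, TPM and FPKM. Their deposited transcript table adds a percent, the part of a gene that falls on each transcript. A further deposited table, made without alignments, was summed over the transcripts of a gene and is called the second quantification. For the programs and the strand setting, the entry is "not given in the sources used here".

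Rows that are no annotated gene (0.0788% of the reads of replicate 1 and 0.0771% of replicate 2) were left out. Each level is a TPM value, averaged over both libraries with its SD. Ratios of replicate 1 over replicate 2 came from rounded expected counts, TMM scaling and 0.5 prior reads (edgeR 4.0.16, R 4.3.3) for genes averaging 10 reads or more, with exact binomial 95% intervals, and the calculation was tested on simulated data. Over these genes the quantity that edgeR names the biological coefficient of variation was 0.292. It comes from the same 2 libraries with 1 donor identifier, so it may reflect technical spread. Intervals and the floor of 3 reads cover counting error only. Python 3.11.15 and pandas 2.3.3 handled the tables.

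The genes and lists were chosen with earlier results of these data known. Named are the 10 genes, the 3 highest genes of each list (2 of them are not reported here) and those under 1 TPM in both libraries, the neighbours of the chromosome 16 block, and transcripts with at least 10% of a gene in either library. The genes inside the block and Plec were added after their values were seen. As alternatives, FPKM, the second quantification, library totals, DESeq2 1.42.0 size factors, other thresholds and each library alone were tried.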

Additional observations from a re-analysis of the deposited data

How the results depend on the processing

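No paired analysis was possible because the 2 libraries form a single group. The interferon-linked minus DNA-repair difference was 1.57 as reported and between 1.48 and 1.66 for either library alone, and it stayed between 1.48 and 1.59 with the second quantification, FPKM, TPM rescaled over protein-coding genes, a pseudocount of 0.1 or means over genes. Of the 18 pairs, 15 rather than 16 had the interferon-linked gene higher in both libraries in the second quantification, and either library alone gave 16 to 18. The median level of the 10 genes, 59.6 TPM, was 40.3 in FPKM and 68.4 TPM when rescaled over protein-coding genes, and either library alone gave 59.4 to 66.6 TPM. By construction both units rescale all genes of a library alike. In place of 4 genes at 100 TPM, 3 reached it in the second quantification, without Dtx3l, while 1 reached 100 in FPKM and 1 reached 200 TPM. No member ratio changed sign under another scaling, filter or quantification. By mean level, Parp11 moved above Parp3 and Parp10 in the second quantification. With 2 libraries, the spread of each value rests on a single difference, and depth limits the genes and transcripts with few reads.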

Other observations

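The alignment-based and alignment-free quantifications disagreed on a few transcripts of these genes or beside them, chosen here after their values were seen. Parp11-204, a coding transcript with a start between those of Parp11-202 and Parp11-201, had 0 TPM in both libraries in the alignment-based table, against 15.2 TPM in replicate 1 and 23.8 TPM in replicate 2 in the other. Parp10-205, a nonsense-mediated decay transcript, had 6.32 TPM in replicate 1 and 6.89 TPM in replicate 2 in the alignment-based table, which is 8.24% and 14.8% of the gene, against 0.84 and 0.28 TPM in the other. Gm15564 is an antisense gene whose span overlaps the 3′ end of Parp9, though it shares 0 exonic bases with Parp9. It had 0 TPM in both libraries in the alignment-based table, against 38.2 TPM in replicate 1 and 2.20 TPM in replicate 2 in the other.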
